A study of Homo sapiens and Mus musculus with 7 samples.

Results

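GREM1 and the genes around it in bone morphogenetic protein (BMP) signalling were followed across FAS knockdown and knockout on 7 Affymetrix expression arrays. The 10 genes were GREM1, BMP2, BMP4, ID1, ID2, ID3, ID4, SMAD6, SMAD7 and BAMBI, taken by symbol from the platform annotation. They were measured by 20 of the 41091 human probe sets with a single gene symbol, and in mouse, under the same symbols, by 15 of 34945. All 10 were among the 19775 genes of the human table and the 18193 of the mouse table. The genes were chosen by the GREM1 signal, which was lower with both FAS hairpins in HeyA8 cells, and the question was whether genes induced by BMPs moved the other way. The HeyA8 knockdown values therefore chose the set. All members' values in that contrast, and their knockdown effects in fits that hold it, are given as a description without a p-value. Differences between the cell lines, from the same fit, carry a p-value and were added after the values had been seen.

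HeyA8 is a human ovarian cancer cell line and was measured with stable expression of the FAS hairpin shRNA4, with stable expression of shRNA6, and with pLKO, the lentiviral hairpin vector, as the control. The human liver cancer cell line HepG2 was measured with shRNA6 and with the same control vector. Liver of male C57/BL6 mice aged 2 months was measured from a Fas knockout and from a wild type. FAS encodes the death receptor for Fas ligand. The labels call the cell lines knock-out in one field and stable knock-down in another, and FAS signal remained on every knockdown array, so they are called knockdowns here. The sources used here do not say whether a line was a single clone, how the Fas allele was made or whether mice were pooled. Each of the 7 groups held 1 array. No difference within a single comparison therefore has a replicate check, and the p-values of fits over several arrays measure only how far these samples spread, which may be a technical spread.

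BMPs are secreted ligands that bring together type I and type II receptors on the cell surface. The active receptors phosphorylate SMAD1, SMAD5 and SMAD9, which enter the nucleus with SMAD4 and switch on ID genes and the feedback inhibitors SMAD6 and SMAD7. ID proteins bind the E proteins TCF3, TCF4 and TCF12 and keep them off DNA, and GREM1 binds BMP2 and BMP4 outside the cell and blocks them. In the liver, BMP signalling from sinusoidal endothelial cells to hepatocytes drives the iron hormone hepcidin, encoded by HAMP.

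Signals are MAS5 intensities on a linear scale, with array medians between 57.8 and 63.4 in the human table and of 75.2 and 79.9 in the mouse table. Log2 ratios were taken after adding the 25th percentile of each table, 12.6 in human and 20.5 in mouse, and so understate differences of dim genes. Genes with at least 1 of the compared arrays above its own median were kept, and those with 1 above its 75th percentile are called bright. The most intense probe set stands for a gene, and other probe sets are given where they differ. The FAS log2 ratio was -0.82 with shRNA4 and -1.29 with shRNA6 in HeyA8, -0.77 in HepG2, and -1.61 in the knockout liver. Of 6 hepatocyte markers the summed signal was 117970 and 123072 on the HepG2 arrays and at most 156 in HeyA8. The ovarian carcinoma marker PAX8 was at 3047, 3037 and 2860 on the HeyA8 arrays, whereas MUC16 was at most 4.66 on all 3. PAX8 was not confined to HeyA8, at 604 and 593 on the HepG2 arrays, where it was bright too.

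GREM1 and the BMP-induced genes whose values the comparisons turn on are shown first by their promoters, to show which of the letters that SMAD proteins are known to bind lie there. The sequences are those of RefSeq in build GRCh38.p14, from 250 bases before to 50 bases after the gene's start, read 5′ to 3′ along the gene. The table held 9 of the 10 genes, and BMP2 was not among them. Both strands were searched for GTCTAGAC, the palindromic Smad box, for GGCGCC, a GC-rich motif bound by SMAD1 and SMAD5, and for GTCTG, a single Smad box with a flanking G. GTCTG is not contained in either other motif. Matches are in capitals, and positions give the first base of a match relative to the gene's start. GREM1 has 2 starts in the table, of which the first is shown (chr15:32717754-32718053, plus strand). ID1 (chr20:31605039-31605338, plus strand), ID3 (chr1:23559452-23559751, minus strand) and BAMBI (chr10:28677271-28677570, plus strand) are shown because they were the BMP-induced genes that stood highest with shRNA4 in HeyA8. SMAD6 (chr15:66701986-66702285, plus strand) is shown because its signal separated the cell lines.
GREM1: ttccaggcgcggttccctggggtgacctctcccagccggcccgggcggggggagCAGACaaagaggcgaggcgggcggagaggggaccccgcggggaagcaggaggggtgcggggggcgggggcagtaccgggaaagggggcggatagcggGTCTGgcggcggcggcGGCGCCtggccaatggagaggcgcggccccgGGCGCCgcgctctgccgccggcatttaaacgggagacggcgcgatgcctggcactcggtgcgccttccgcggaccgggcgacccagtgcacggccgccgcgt
ID1: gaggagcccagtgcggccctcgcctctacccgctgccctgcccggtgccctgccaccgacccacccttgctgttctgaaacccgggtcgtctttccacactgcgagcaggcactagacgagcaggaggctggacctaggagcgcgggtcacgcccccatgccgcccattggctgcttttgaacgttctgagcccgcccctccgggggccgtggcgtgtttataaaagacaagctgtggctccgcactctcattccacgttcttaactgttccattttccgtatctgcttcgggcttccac
ID3: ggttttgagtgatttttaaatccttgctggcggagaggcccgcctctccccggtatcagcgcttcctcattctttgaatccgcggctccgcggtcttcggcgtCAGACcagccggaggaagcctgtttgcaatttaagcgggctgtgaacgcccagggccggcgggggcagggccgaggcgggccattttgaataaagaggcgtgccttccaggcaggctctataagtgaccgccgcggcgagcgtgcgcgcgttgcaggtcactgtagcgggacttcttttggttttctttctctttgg
BAMBI: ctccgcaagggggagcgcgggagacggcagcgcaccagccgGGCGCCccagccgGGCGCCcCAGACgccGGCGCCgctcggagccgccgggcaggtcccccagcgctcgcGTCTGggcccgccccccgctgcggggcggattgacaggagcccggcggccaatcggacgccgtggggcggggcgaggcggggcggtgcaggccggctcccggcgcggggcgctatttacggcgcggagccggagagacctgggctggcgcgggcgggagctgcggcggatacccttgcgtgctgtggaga
SMAD6: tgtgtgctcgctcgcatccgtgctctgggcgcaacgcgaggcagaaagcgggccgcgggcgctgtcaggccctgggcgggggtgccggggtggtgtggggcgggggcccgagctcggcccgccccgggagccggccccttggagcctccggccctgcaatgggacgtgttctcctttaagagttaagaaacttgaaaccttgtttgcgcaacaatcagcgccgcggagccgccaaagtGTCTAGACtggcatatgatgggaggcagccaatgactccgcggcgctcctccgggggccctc

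The palindrome GTCTAGAC lay in the SMAD6 window, at position -12, and in none of the other 8 genes' first windows, against 0.202% of the 35116 promoters of the table. GGCGCC was found in GREM1, BMP4 and BAMBI, 3 of 9 first windows, against 19.2% of all promoters. BAMBI held it at positions -209, -196 and -181, and GREM1 at -83 and -52. GTCTG was found in 6 of 9 first windows, against 45.3% of all promoters. The ID1 and ID2 windows held none of these letters, although both genes are known BMP targets. A match describes the letters in a window and does not show binding.

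GREM1, the secreted BMP antagonist, had a signal of 657 with shRNA4 and 593 with shRNA6 in HeyA8, against 1384 in the pLKO control. Both hairpin arrays were thus below the control, at 47.5% and 42.8% of its signal, with log2 ratios of -1.06 and -1.21. The other GREM1 probe set gave 598 and 663 against 1188, log2 ratios of -0.98 and -0.83. The hairpins share a single control array, so these are not separate comparisons. GREM1 was the one member at least 2-fold lower, where 2.38% of the 12175 kept genes were with shRNA4 and 2.21% of the 12152 were with shRNA6. This is the value that chose the set, and nothing is read from it.

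In HepG2, GREM1 was below the array median on both arrays, at 25.9 with shRNA6 and 2.84 in the control. The other probe set ran the opposite way, at 16.5 with shRNA6 and 32.4 in the control. No direction for GREM1 in HepG2 can be read from signals this low. In mouse liver Grem1 was below the median as well, at 39.6 in the knockout and 45.3 in the wild type.

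Over the 5 human arrays, the 5 genes whose centred log2 profile lay nearest to that of GREM1, of 8927 bright genes, were RBMS3, TSHZ3, JPH1, WNT5A and CDYL2. Their root mean square distances were 0.31, 0.35, 0.37, 0.38 and 0.40 log2 units. All had signals of at least 655 on the HeyA8 arrays and at most 63.6 in HepG2, so the likeness comes mostly from the cell lines. In HepG2 all 5, like GREM1, were higher with shRNA6 than in the control, RBMS3 at 29.2 against 0.861. That likeness lies at signals too low for a direction to be read. With the hairpins in HeyA8 they were less far below the control than GREM1. RBMS3, an RNA-binding protein, had log2 ratios of -0.73 and -0.37, and WNT5A, a Wnt ligand, of -0.31 and -0.36.

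**Figure D1:**
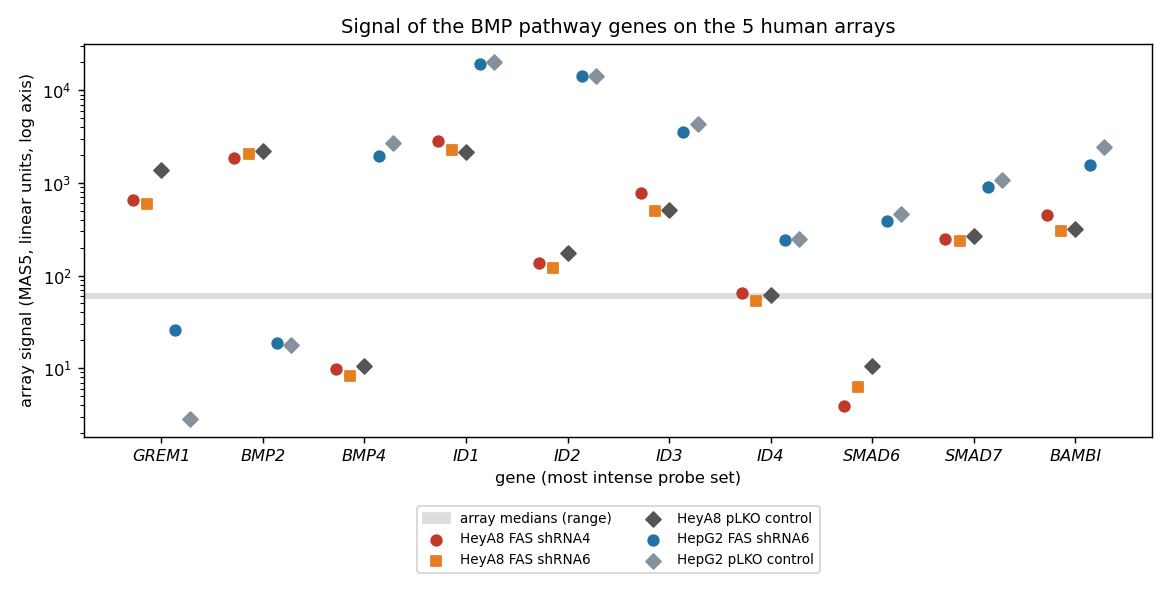
Signal of the 10 genes on each of the 5 human arrays, on a log axis, with 1 point per array and the range of array medians as a grey band. GREM1 and BMP2 lie above the band on the HeyA8 arrays alone, BMP4 and SMAD6 on the HepG2 arrays alone, and the ID genes, SMAD7 and BAMBI are higher in HepG2.

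The BMP-induced genes did not shift together against GREM1 in HeyA8. ID1 had a signal of 2851 with shRNA4 and 2260 with shRNA6, against 2142 in the control. ID3 had 779 with shRNA4 and 493 with shRNA6, against 516 in the control. BAMBI, a pseudoreceptor that dampens BMP and TGF-beta signals, had 446 with shRNA4 and 303 with shRNA6, against 320 in the control. All 3 were higher with shRNA4, with log2 ratios of 0.41, 0.58 and 0.46, while with shRNA6 they lay at 0.08, -0.06 and -0.07. The 95th percentile of bright genes was 0.41 with shRNA4, so ID3 and BAMBI lay outside the range that holds most bright genes, and ID1 lay at its edge. None of the 3 lay above the 95th percentile of all kept genes, 0.66, which dim genes widen.

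ID2 went the other way. Its signal was 137 with shRNA4 and 120 with shRNA6, against 175 in the control, log2 ratios of -0.33 and -0.50, and its cross-hybridising probe set gave -0.91 and -0.47. These signals are not far above the array medians, and neither array put ID2 among the bright genes. SMAD7, which blocks BMP and TGF-beta receptors from inside the cell, was at 248 with shRNA4 and 237 with shRNA6, against 267 in the control, log2 ratios of -0.10 and -0.16. ID4 was near the array median throughout, at 65.0 with shRNA4 and 53.3 with shRNA6, against 62.4 in the control. Its cross-hybridising probe set gave -0.19 and -0.53. The remaining 3 ID4 probe sets were below the median on all 3 HeyA8 arrays, among them one at 60.1 with shRNA4 and 8.05 with shRNA6, against 55.5 in the control. SMAD6, which competes with SMAD4 for SMAD1, was below the median on all 3 arrays, at 3.88 with shRNA4 and 6.27 with shRNA6, against 10.7 in the control. Its other 3 probe sets were below the median on all 5 human arrays.

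Of the ligands, BMP2 was at 1877 with shRNA4 and 2076 with shRNA6, against 2200 in the control, log2 ratios of -0.23 and -0.08. The second BMP2 probe set gave -0.26 and 0.01. BMP4 was not above the median on any HeyA8 array, with signals between 8.17 and 10.6. HeyA8 arrays thus showed the ligand BMP2 beside its antagonist GREM1 and no BMP4 above the median.

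Counted over the 8 kept members, 4 were below 0 with shRNA4, where 46.6% of all kept genes were, and 7 were below 0 with shRNA6, where 48.8% of all kept genes were. The count with shRNA6 was 6 after arrays were scaled to equal medians, since ID3 then lay at 0.01. The 6 kept BMP-induced members had a median log2 ratio of 0.23 with shRNA4 and -0.12 with shRNA6, beside 0.03 and 0.01 for all kept genes. With shRNA4 that median was 0.05 over all 7 members without a filter and 0.46 over the 3 bright ones.

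**Figure D2:**
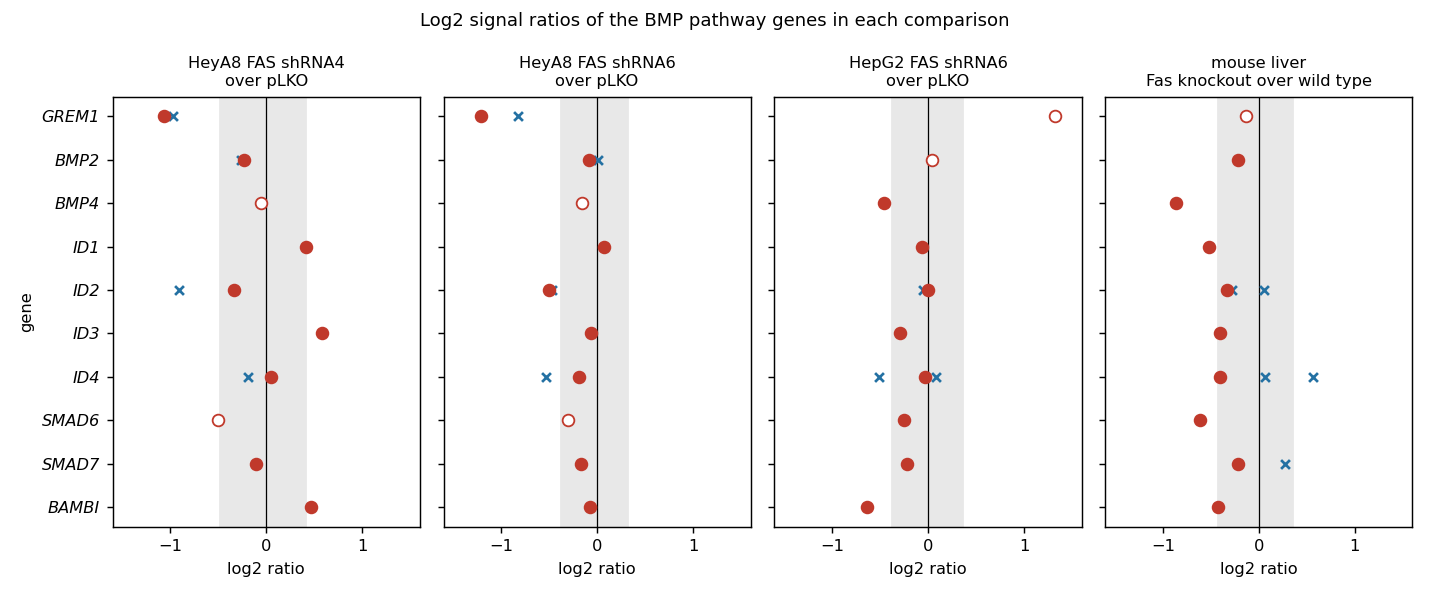
Log2 ratio of each gene (rows) in the 4 comparisons (panels), each of 1 array against 1 control array. Filled circles are the most intense probe set, open circles the same where neither array was above its median, crosses other kept probe sets, and grey bands hold the 5th to 95th percentile of bright genes. GREM1 lies left of the band with both HeyA8 hairpins, ID3 and BAMBI right of it with shRNA4 only, and BAMBI and BMP4 left of it in HepG2.

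Other genes of the pathway in HeyA8 were of mixed direction. Of 47 listed ligands, receptors, antagonists, signal transducers and other BMP-induced genes, 30 were kept with shRNA4, 18 above and 12 below 0, and 32 with shRNA6, 12 above and 20 below 0. RGMB, a BMP co-receptor, was at 2468 with shRNA4 and 1956 with shRNA6, against 1467 in the control, log2 ratios of 0.75 and 0.41. The other 3 kept probe sets of RGMB were above 0 with both hairpins. RUNX2, a BMP-induced transcription factor of bone, was at 1301 with shRNA4 and 1227 with shRNA6, against 1918 in the control, log2 ratios of -0.56 and -0.64. Others of the BMP-induced list had larger ratios above 0 at low signal. DLX5, a homeobox factor, was at 71.0 with shRNA4 against 32.7 in the control (0.89), and at 53.2 with shRNA6 (0.54), below the median. ATOH8, a helix-loop-helix factor, was at 93.6 with shRNA6 against 43.3 in the control (0.93), with its other kept probe sets at 0.27 and 0.54. With shRNA4 it was at 36.1 (-0.20), below the median.

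The signal transducer SMAD5 was at -0.71 with shRNA4, with its other probe sets between -1.18 and -0.44. With shRNA6 it was at -0.09, with the others between -0.11 and 0.17. NOG, another secreted BMP antagonist, was at -0.60 with shRNA4 and -0.06 with shRNA6. SMAD4, the partner of all receptor SMADs, was at -0.29 with shRNA4 and -0.36 with shRNA6, and its other kept probe sets were below 0 too. GDF5 and GDF2, ligands of the BMP family, had ratios of 1.69 and 1.39 with shRNA6 but signals of at most 95.7. Of the 5 measured TGF-beta-induced genes, which share SMAD7 as an inhibitor, 2 were below 0 with shRNA4 and 5 with shRNA6, led by PMEPA1 at -1.29, although another of its probe sets gave 0.71.

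In HepG2 with shRNA6, 8 members were kept, and all 8 were above the array median on both arrays. BAMBI had a signal of 1557 with shRNA6 against 2421 in the control, with -0.63 as the log2 ratio, the lowest of the 8. BMP4, the ligand seen in this line, had 1937 with shRNA6 against 2667 in the control, which gave -0.46. Both lay below the 5th percentile of bright genes, -0.38, though not below that of all kept genes, -0.66. ID3 followed at 3519 against 4312 (-0.29), SMAD6 at 390 against 466 (-0.25) and SMAD7 at 913 against 1068 (-0.22). ID1, at 19357 against 20273, ID2, at 14126 against 14156, and ID4, at 244 against 249, were level on both arrays to within 0.07 log2 units. Of the other kept ID4 probe sets, the cross-hybridising one gave 0.09 and one at 40.5 against 63.1 gave -0.51.

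All 8 kept members were below 0, where 51.7% of the 12167 kept genes were, but 6 were after quantile normalization, since ID1 and ID2 then lay at 0.02 and 0.04. None was at least 2-fold apart from the control, as were 5.22% of kept genes in either direction. The 7 BMP-induced members had a median of -0.22, beside -0.01 for all kept genes. The median was -0.07 with the mean of all probe sets of a gene, since SMAD6, whose 3 dim probe sets were of mixed direction, then averaged 0.23. With equal array medians all kept genes had a median of -0.12, and the difference of the members from it was -0.21 both before and after.

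Other pathway genes were not lower as a group in HepG2, with 13 of 25 kept above 0 and 12 below. HAMP, the hepatocyte BMP target, was at 3946 with shRNA6 against 4280 in the control, which gave -0.12, and ATOH8, at 105 against 66.4, gave 0.57 with its other probe sets at -0.11 and -0.03. GDF7, a BMP-family ligand, was at -0.79, SMURF1, a ubiquitin ligase for BMP SMADs, at -0.56 with another probe set at 0.98, and the antagonist FSTL3 at -0.52. TGFBI, induced by TGF-beta, was at 7743 against 11449, a log2 ratio of -0.56, and LTBP2, of the same list, at 74.9 against 136 (-0.76). Hepatocyte markers were below 0 in 5 of 6 cases with a median of -0.06. Bile duct markers were below 0 in 3 of 4 cases, among them KRT19 at -0.91, and of the stellate cell and fibroblast list 3 of 6 markers were kept, all below 0. The summed signal of the bile duct list was 22565 with shRNA6 and 26284 in the control, and of the stellate list 4679 and 9524. Most of the stellate sum was a single gene, RELN, at 4395 with shRNA6 and 8546 in the control. COL1A1 was at 145 against 820 (-2.40), with its other kept probe sets at -2.85 and 0.59. The part of these marker genes in the lower BMP4 and BAMBI signals was not tested.

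In the Fas knockout liver 9 members were kept, and all were above the array median on both arrays and below 0 by their most intense probe set. Bmp4 had a signal of 227 in the knockout against 431 in the wild type, a log2 ratio of -0.87. Smad6 had 230 in the knockout against 362 in the wild type (-0.61), and Id1 had 603 against 874 (-0.52). Bambi was at 251 against 345 (-0.43). These 4 lay below or at the 5th percentile of bright genes, -0.43, although Smad6 and Bambi were not bright themselves. Bmp4 alone lay below that of all kept genes, -0.72. The others stood closer to 0, with Id3 at 1402 against 1858 (-0.40) and Id2 at 5080 against 6400 (-0.33). Bmp2, which sinusoidal endothelial cells secrete, was at 1117 against 1306 (-0.22).

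Id4 and Smad7 depended on the probe set. Id4 was at 101 in the knockout against 140 in the wild type (-0.40), but its other probe sets gave 0.06 and 0.56. Smad7 was at 297 against 348 (-0.22), and its cross-hybridising probe set gave 0.27. The other Id2 probe sets gave -0.29 and 0.05.

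Of all 12047 kept genes 52.7% were below 0, beside 9 of 9 members, and with the mean of all probe sets 7 of 9 members were. None of the members was at least 2-fold lower, as were 2.57% of kept genes. The 7 BMP-induced members had a median log2 ratio of -0.40, beside -0.02 for all kept genes, and between -0.46 and -0.33 under the other pseudocounts and scalings tried. With 1 liver in each group, a difference between genotypes and a difference between these livers cannot be told apart.

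Markers of several other cell types of the liver were lower beside these genes. All 6 endothelial markers were below 0 in the knockout, from Lyve1 at -0.45 to Kdr at -0.09, with a median of -0.35, and their summed signal was 4814 in the knockout and 5991 in the wild type. Of the Kupffer cell and macrophage markers 4 of 5 were below 0, with summed signals of 8473 and 9857, and of the stellate cell and fibroblast markers 5 of 6, with summed signals of 16874 and 18729. Hepatocyte markers were above 0 in 3 of 4 cases, with summed signals of 132711 and 130127. Of the bile duct markers Sox9 was at -2.44, Epcam at -1.56 and Krt7 at 1.69, all at signals of at most 198. The other kept Epcam probe set gave 0.01. The summed signals of the bile duct list were 211 and 379. All 4 kept TGF-beta-induced genes were below 0, with a median of -0.33. In whole liver, fewer cells of a type and less RNA per cell cannot be told apart, and the part of these markers in the lower BMP genes was not tested.

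Among other pathway genes in mouse liver, 13 of 28 kept were above 0 and 15 below. Fst, which encodes the activin and BMP antagonist follistatin, had 78.3 in the knockout against 344 in the wild type, a log2 ratio of -1.88, and its other probe set gave -1.55. The BMP-induced factors Atoh8 and Msx1 were at -0.99 and -0.67, at signals of at most 142, while hepcidin, Hamp, was at 21282 against 25431 (-0.26). Dlx5, of the same list, went the other way, at 104 in the knockout against 73.6 in the wild type (0.40). Bmp7, a ligand, was at 52.6 against 141 (-1.14), and was the one listed ligand at least 2-fold apart. Bmp6, the ligand through which endothelial cells induce hepcidin, was at 168 against 128, a log2 ratio of 0.34. Of the receptors, the co-receptor Rgmb was at 114 against 53.9 (0.86), with its other probe set at -0.45. Acvr1, a type I receptor, was at -0.42, and the co-receptor for hepcidin induction, Hjv, was at 0.19. Smad9 had a ratio of -2.08 but a signal of 88.5 in the wild type, close to the array median, and 5.27 in the knockout.

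**Figure D3:**
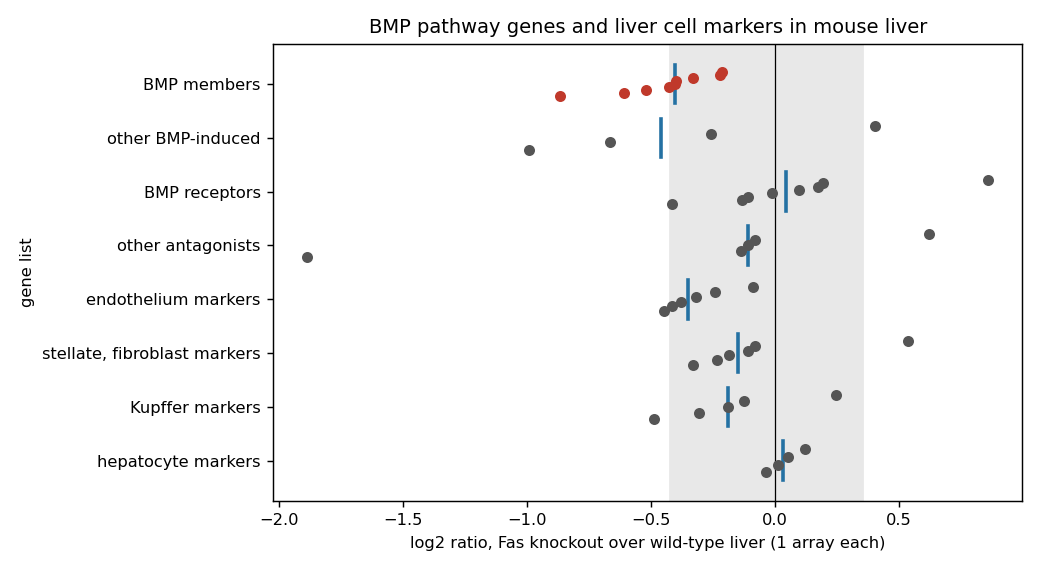
Log2 ratio, Fas knockout over wild-type liver (1 array each), of kept genes by list, with 1 point per gene, blue bars at list medians and a grey band from the 5th to the 95th percentile of bright genes. The 9 BMP members and the 6 endothelial markers all lie left of 0, with medians of -0.40 and -0.35, and hepatocyte markers lie around 0.

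In a limma fit of the 5 human arrays that also held the cell line (2 residual degrees of freedom), FAS knockdown had no common effect that passed on any gene. Of 13936 genes 0 passed an adjusted p of 0.05 (0%), and 568 had an unadjusted p below it. The same HeyA8 contrast that chose the set enters this fit, so no p is given for its members. ID1 was at 0.11 ± 0.13, ID3 at 0.02 ± 0.21, BAMBI at -0.16 ± 0.23 and ID2 at -0.24 ± 0.15 (SE, 5 arrays). SMAD7, below 0 in all 3 knockdown comparisons, had a common effect of -0.17 ± 0.16 (SE, 5 arrays). These effects and errors are a description, and no member is called changed or unchanged from them. In simulated data for these 13936 genes the fit recovered 54% of 50 genes changed 2-fold and 26% of 50 changed 1.5-fold on every knockdown array, so effects of the size seen here could have been missed.

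An interaction term, with 1 residual degree of freedom, set the knockdown effect in HepG2, of shRNA6 alone, against that of both hairpins in HeyA8. Hairpin and cell line therefore cannot be told apart in it. By limma 0 of 13936 genes passed (0%), and the unadjusted p was below 0.05 for 613. BAMBI, higher with shRNA4 in HeyA8 and lower with shRNA6 in HepG2, had a difference of -0.83 ± 0.41, and ID3 one of -0.55 ± 0.43 (SE, 5 arrays). With shRNA6 alone BAMBI was at -0.07 in HeyA8 and -0.63 in HepG2, and ID3 was at -0.06 in HeyA8 and -0.29 in HepG2. These genes are given because of their HeyA8 values, so their differences are a description.

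The lines themselves differed in ligands, antagonist and target genes. This comparison was added after the values had been seen, and rests on the same fit. The arrays within a line differ in hairpin or control vector and are not replicates of a condition. The p-values of the comparison thus describe the spread of these arrays alone. BMP4 had a mean signal of 2302 ± 517 in HepG2 (SD, 2 arrays) and 9.48 ± 1.22 in HeyA8 (SD, 3 arrays), and BMP2 of 18.1 ± 0.6 in HepG2 and 2051 ± 163 in HeyA8. GREM1 was at 14.4 ± 16.3 in HepG2 and 878 ± 440 in HeyA8, and SMAD6 at 428 ± 54.1 in HepG2 and 6.94 ± 3.44 in HeyA8. In each of these 4 genes the lower line lay below the array median. They entered the fit through 1 line alone, which leans toward a difference.

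ID2 had a mean signal of 14141 ± 21.2 in HepG2 and 144 ± 28.3 in HeyA8, and ID1 of 19815 ± 648 in HepG2 and 2417 ± 380 in HeyA8 (SD, 2 and 3 arrays). ID3 followed at 3916 ± 561 in HepG2 and 596 ± 159 in HeyA8, BAMBI at 1989 ± 611 and 356 ± 78.0, SMAD7 at 990 ± 110 and 251 ± 15.2, and ID4 at 246 ± 3.5 and 60.2 ± 6.1. None of these ranges overlapped between the lines, but the share of all genes for which this holds was not counted, so nothing is read from it. The log2 differences, HepG2 over HeyA8, were 6.47 ± 0.15 for ID2, 3.06 ± 0.13 for ID1, 2.72 ± 0.21 for ID3 and 2.40 ± 0.23 for BAMBI (SE), with limma adjusted p of 3.44e-08, 5.17e-07, 1.53e-05 and 5.50e-05. SMAD7 differed by 1.90 ± 0.16 and ID4 by 1.83 ± 0.28 (SE), with limma adjusted p of 2.15e-05 and 0.000805. The ID4 value rests on its most intense probe set. Its cross-hybridising probe set was at 142 and 133 in HepG2 and between 70.3 and 107 in HeyA8. Another did not separate the lines, at 40.5 and 63.1 in HepG2 and 60.1, 8.05 and 55.5 in HeyA8. The remaining ID4 probe sets were below the median on all 5 arrays. The 5 genes above the median on all 5 arrays, ID1, ID2, ID3, SMAD7 and BAMBI, were thus higher in HepG2, as was ID4, above it on 2 of 3 HeyA8 arrays, where 30.0% of all 13936 genes passed in that direction and 58.0% in either.

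**Figure D4:**
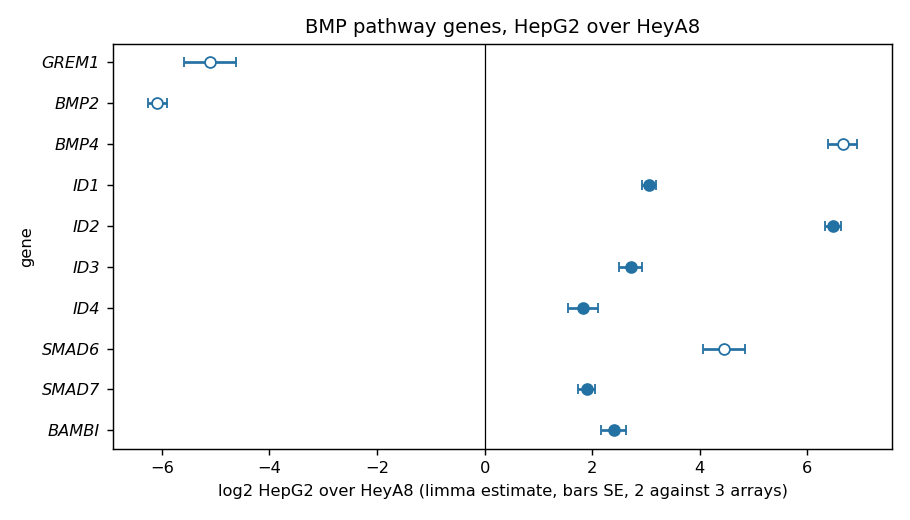
Limma log2 difference, HepG2 over HeyA8, with its standard error, from 2 HepG2 and 3 HeyA8 arrays. Open circles mark genes above the array median in 1 line alone. ID2 lies farthest right of the genes measured in both lines, at 6.47, and BMP2 and GREM1 lie left of 0.

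Other pathway genes did not share one direction between the lines. By the same limma fit, 4176 of all 13936 genes passed as higher in HepG2 (30.0%) and 3903 as lower, 58.0% in either direction. Of the receptors 2 of 9 tested were higher in HepG2 and 6 lower, and of the other antagonists 3 of 10 were higher and 5 lower. These counts include genes above the array median in 1 line alone, which leans toward a difference without forcing one. CHRDL2, an antagonist above it in HeyA8 alone, did not pass (limma adjusted p of 0.537). FST, measured above the median in both lines, was higher in HepG2 by 3.81 ± 0.14 (SE). Of 6 other BMP-induced genes HAMP was higher in HepG2 and MSX1, MSX2 and RUNX2 were lower, but only MSX1 was above the median in both lines. MSX1, a homeobox factor, was at 1274 and 1122 on the HepG2 arrays and at 1488, 1713 and 1768 on the HeyA8 arrays, a log2 difference of -0.46 ± 0.13 (SE) with a limma adjusted p of 0.0161. Of the E proteins bound by ID proteins, TCF4 was at 11.5 and 14.9 in HepG2, below the median, and between 1694 and 2031 in HeyA8. TCF3 and TCF12 differed by -0.10 ± 0.15 and -0.11 ± 0.11 (SE) and did not pass.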

How the data were processed

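Total RNA of 7 samples was hybridised to human (5) and mouse (2) Affymetrix arrays. The deposited values are array intensities, for which the submitters' processing notes name MAS5 without settings. The 2% trimmed mean was 500.1 on each human array and 500.0 on each mouse array, as under one scaling factor per array. No detection calls were used. The number of arrays limits the precision.

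Control probe sets (62 human, 64 mouse) were left out, and symbols came from the platform annotation. Log2 ratios used the 25th percentile of a table as the pseudocount. Limma 3.58.1 in R 4.3.3 fitted cell line and knockdown on log2 values with a trended prior variance (5.78 prior degrees of freedom) and Benjamini-Hochberg adjustment over all genes kept, and was tested on simulated data in which 200 genes were changed. Single comparisons, of 1 array each, were not tested. Other steps used Python 3.11.15, numpy 2.4.6 and pandas 2.3.3. Members and lists were chosen with earlier results of these data known. All members were named, but not every one of their probe sets was given in every comparison. Of each other list the rule took the 3 genes with the largest ratio per comparison, of which some are printed. Which of these to print, mouse Hamp, human MSX1 between the cell lines and single markers were chosen after their values were seen. The comparison of HepG2 with HeyA8 was likewise added after seeing the data. Alternatives were other pseudocounts, scalings, filters, probe set rules and thresholds, a fit without the variance trend or without the cell line, and each array left out in turn.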

Additional observations from a re-analysis of the deposited data

How the results depend on the processing

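The counts of genes at least 2-fold apart moved most with the filter and the pseudocount. In the order HeyA8 shRNA4, HeyA8 shRNA6, HepG2 and mouse liver they were 579, 513, 635 and 523. They were 149, 95, 175 and 138 with the table median as pseudocount, 2134, 1929, 2255 and 1555 without a filter, 56, 30, 69 and 44 among bright genes, and 1575, 1324, 1537 and 1508 at 1.5-fold. Among bright genes 2 of 5 members were below 0 with shRNA4, 3 of 4 with shRNA6 and 5 of 5 in mouse liver, as fewer members were kept. After scaling to equal array medians 2 genes passed for the common knockdown effect, neither of them among the 9 members other than GREM1. Leaving out each array in turn gave 0 genes for the common effect and between 5445 and 8039 for HepG2 over HeyA8, against 8079 with all arrays, a comparison and alternatives chosen after seeing the data. In all 10 alternatives of that comparison ID1, ID2, ID3, SMAD7 and BAMBI, measured in both lines on every array, kept their direction and an adjusted p of at most 0.00621 by limma, and ID4 one of at most 0.0278. Leaving out an array left the interaction without residual degrees of freedom or without an estimate, and was not run. No paired analysis was possible because the labels give no replicate numbers, and the cell line, shared by hairpin and control, was already a term of the fit. The median of BMP-induced members ran from 0.05 to 0.46 with shRNA4, from -0.16 to 0.01 with shRNA6, from -0.34 to -0.07 in HepG2 and from -0.46 to -0.33 in mouse liver, so that with shRNA4 it moved by about its own size. The GREM1 ratio ran from -1.07 to -1.01 with shRNA4 and from -1.22 to -1.02 with shRNA6 in HeyA8.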
